A study of Mus musculus with 6 samples.

Results

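A set of 10 genes that mark the cells around kidney vessels was followed through 6 libraries of CD31-sorted kidney cells, of 55487 genes in the deposited table. They are Rergl, Acta2, Tagln, Myh11 and Cnn1 for vascular smooth muscle, Pdgfrb and Rgs5 for pericytes and other mural cells, and Pdgfra, Dcn and Lum for fibroblasts. All 10 were found by gene symbol. Rergl was chosen by its measured FPKM, which put it among the genes lowest in I-PpoI relative to control, so its difference is described without a test. The other 9 are textbook markers, and they too were chosen with earlier results of these data known.

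The I-PpoI group was 3 mice carrying VE-cadherin Cre with a STOP-I-PpoI allele that Cre activates, written as ROSA26, ROSA27 and ROSA28 for I-PpoI animals 1, 2 and 3. I-PpoI is an endonuclease that cuts DNA on both strands, and VE-cadherin drives Cre in endothelium, so neither mural cells nor fibroblasts are the cells in which the cut is aimed. The control group was 3 wild-type littermates. All 6 mice went onto a high-fat diet, with 60% of energy from fat, at 8 weeks of age and stayed on it for 4 weeks, and the labels give 1 batch. Kidneys were digested and cells bearing CD31, an endothelial surface protein, were kept on magnetic beads, and RNA was sequenced as paired ends. Values are FPKM, fragments per kilobase of exon scaled to the size of the library, with 1 value per mouse.

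Mural cells wrap the endothelial tube. Smooth muscle cells of arteries and arterioles contract through actin, myosin and their binding proteins, whose genes are switched on by serum response factor (SRF) with myocardin at a DNA element called the CArG box. Pericytes sit on capillaries and depend on the growth factor PDGF-B, made by endothelium, and its receptor PDGFR-beta. Renin cells of the afferent arteriole and mesangial cells of the glomerulus belong to the same stromal family. Fibroblasts carry PDGFR-alpha and secrete matrix proteoglycans such as decorin and lumican.

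The libraries differed in ways that touch every value below. Depth, as whole fragments worked back out of FPKM, was 1590957, 834149 and 13324303 for I-PpoI animals 1, 2 and 3, against 14081222 to 16954480 in the controls. I-PpoI animals 1 and 2 also stood apart in strand, with 68.2% and 70.6% of mitochondrial fragments on minus-strand genes. That share was 0.0821% for I-PpoI animal 3 and 0.0473 to 0.0664% for the control group. Mitochondrial genes took 6.42%, 38.2% and 48.2% of fragments in I-PpoI animals 1, 2 and 3, against 8.83 to 18.3% among controls. Y-linked Ddx3y had 20, 0 and 0 fragments in I-PpoI animals 1, 2 and 3, against 959 to 1672 in the controls. Female-specific Xist had 0, 70 and 4739 fragments in I-PpoI animals 1, 2 and 3, against 0 to 4 in the controls, so I-PpoI animals 2 and 3 differed from the controls in both sex-linked genes. Endothelial Cdh5 stood at 199, 65.0 and 149 FPKM in I-PpoI animals 1, 2 and 3, against 266 to 328 FPKM in the controls. Summed FPKM of 9 proximal tubule genes was 118, 354 and 1204 in I-PpoI animals 1, 2 and 3, against 267 to 971 in the controls. Of that sum Kap alone held 710 FPKM in I-PpoI animal 3 and 755 FPKM in control animal 2. Between I-PpoI animal 3 and the controls, the 9 genes had a median log2(FPKM + 1) difference of 1.52, beside -0.60 for all genes. The part of these library differences in the results below was not tested.

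The markers checked the label unevenly. Some smooth muscle genes were abundant in a preparation selected for CD31. Acta2 ranked 187, 132 and 104 of 21936 protein-coding genes in I-PpoI animals 1, 2 and 3, and 51, 116 and 94 in control animals 1, 2 and 3. Tagln ranked 205 to 330 in I-PpoI and 180 to 324 in control libraries, but Cnn1 only 2521 to 5842 in I-PpoI and 4548 to 5855 in control libraries, and Rergl 5041 to 6629 in I-PpoI and 1063 to 1949 in control libraries. The fibroblast markers were scarce. Lum was listed at 0 in I-PpoI animals 1 and 2 and in control animals 1 and 3, and Dcn was under 3 FPKM in every library. None of the 10 is specific to renin cells. Ren1, which encodes renin, was measured beside them at 62.5, 130 and 114 FPKM in I-PpoI animals 1, 2 and 3, against 93.2, 197 and 149 FPKM in control animals 1, 2 and 3.

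Rergl is a small GTPase-like gene related to RERG that marks vascular smooth muscle in human tissue atlases. It was chosen by its low I-PpoI values, so nothing is read from the width of its gap. It lies on GRCm38 chromosome 6, 139492973 to 139501976, on the minus strand (ENSMUSG00000092164), and its exons have no opposite-strand gene within 5 kb. Rergl was at 5.86, 2.49 and 4.46 FPKM in I-PpoI animals 1, 2 and 3, against 39.5, 29.6 and 21.1 FPKM in control animals 1, 2 and 3. Every I-PpoI library was below every control. The means were 4.27 ± 1.69 FPKM in I-PpoI and 30.1 ± 9.25 FPKM in control (SD, n = 3 each), a control level 7.04-fold that of I-PpoI. Beside every result here, fewer cells of a type and less of its RNA per cell cannot be told apart in bulk samples.

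The depth behind these Rergl values was unequal. They rest on 9, 2 and 57 fragments in I-PpoI animals 1, 2 and 3, against 612, 399 and 342 in control animals 1, 2 and 3. The 95% exact Poisson interval, which covers counting error only, was 2.68 to 11.1 FPKM in I-PpoI animal 1 and 0.302 to 9.001 FPKM in I-PpoI animal 2. In I-PpoI animal 3, the one I-PpoI library close to the controls in depth, it was 3.38 to 5.78 FPKM, against 18.9 to 23.4 FPKM in control animal 3, the lowest control. The control mean was 6.73-fold the level of I-PpoI animal 3 alone. On the log2(FPKM + 1) scale, which understates changes of low genes, the difference was -2.57 (SE 0.41), with 0.234% of the 14962 tested genes lower. That place restates the choice of the gene.

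The RefSeq promoter of Rergl is shown because it holds an element of smooth muscle genes, and that of Acta2, the most abundant contractile marker, stands beside it for comparison. Each runs 5′ to 3′ from 250 bases before to 50 after the RefSeq start on GRCm38.p6, at chr6:139501860-139502159 and chr19:34255324-34255623, both on the minus strand. Capitals mark CArG elements.
Rergl: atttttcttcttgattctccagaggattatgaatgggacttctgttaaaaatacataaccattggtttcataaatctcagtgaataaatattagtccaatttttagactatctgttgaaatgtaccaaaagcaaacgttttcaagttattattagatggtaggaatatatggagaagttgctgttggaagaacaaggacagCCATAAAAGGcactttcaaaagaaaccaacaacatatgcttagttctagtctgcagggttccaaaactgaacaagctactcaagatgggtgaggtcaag
Acta2: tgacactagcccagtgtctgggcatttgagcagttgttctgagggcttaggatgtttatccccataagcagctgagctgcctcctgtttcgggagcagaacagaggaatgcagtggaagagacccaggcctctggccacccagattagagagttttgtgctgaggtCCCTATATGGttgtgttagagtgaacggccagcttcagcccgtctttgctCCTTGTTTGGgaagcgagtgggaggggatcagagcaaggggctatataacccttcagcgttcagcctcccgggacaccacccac
In Rergl the capitals are an exact CArG box at bases -49 to -40. In Acta2 they are CArG-like elements, with 1 G or C between CC and GG, at -84 to -75 and -34 to -25. The deposited gene spans begin upstream of these RefSeq starts, at 139501976 for Rergl and 34255590 for Acta2. All the marked elements therefore lie inside the deposited spans.

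RefSeq promoters of 5 of the 10 markers were searched: Rergl, Acta2, Cnn1, Rgs5 and Pdgfra. Pdgfrb was left out by a filter on chromosome 18 that has no biological ground. No promoters were at hand for Tagln, Myh11, Dcn and Lum. Both strands were searched for the CArG box, the CArG-like form, TATAAA and CANNTG. An exact CArG box was found in Rergl alone of the 5, and 1.63% of 32851 promoters of the same length hold one. Since Tagln and Myh11 were not searched, this does not set Rergl apart from the other contractile genes. The CArG-like form was in Acta2 alone of the 5, and in 8.499% of all promoters. TATAAA was in none of the 5 and in 13.6% of all. CANNTG was in each of the 5 and in 72.3% of all, and in Rergl it lies at -17 to -12. No match overlapped another in these windows. These are matches of letters and no measure of binding.

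Acta2 encodes smooth muscle alpha-actin, the main actin of contractile mural cells (chromosome 19, 34241090 to 34255590). It was at 138, 130 and 131 FPKM in I-PpoI animals 1, 2 and 3, against 345, 276 and 223 FPKM in control animals 1, 2 and 3. All I-PpoI libraries were below all controls and lay within a narrow band, while the controls spread widely. The log2 difference was -1.05 (SE 0.31) with limma adjusted p = 0.132, short of the threshold of 0.05. Its nearest gene on the opposite strand, Stambpl1, lies 757 bases away and was under 1 FPKM in every library.

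Tagln encodes transgelin, an actin-binding protein of smooth muscle (chromosome 9, 45929619 to 45936058). It was at 115, 93.1 and 58.2 FPKM in I-PpoI animals 1, 2 and 3, against 144, 162 and 93.4 FPKM in control animals 1, 2 and 3. I-PpoI animal 1 was above control animal 3, so the groups overlapped, and the log2 difference was -0.59 (SE 0.40; limma adjusted p = 0.258). It was -0.32 without I-PpoI animal 3.

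Tagln shares its locus with genes on the other strand. The end of Pcsk7 overlaps a Tagln exon, and Pcsk7 was at 5.58 to 10.9 FPKM in I-PpoI and 9.25 to 12.7 FPKM in control libraries. The antisense gene model Gm48529 (chromosome 9, 45930112 to 45933738) lies across Tagln exons. It was at 871 and 950 FPKM in I-PpoI animals 1 and 2, at 3.43 FPKM in I-PpoI animal 3, and at 8.32, 9.56 and 6.07 FPKM in control animals 1, 2 and 3. In fragments, Tagln held 368, 155 and 1543 in I-PpoI animals 1, 2 and 3, and Gm48529 held 3544, 2019 and 116. In control animals 1, 2 and 3 Tagln held 4636, 4525 and 3148 fragments, and Gm48529 held 341, 341 and 261.

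Gm48529 therefore took 90.6% (95% exact Clopper-Pearson interval 89.6 to 91.5%) and 92.9% (91.7 to 93.9%) of the fragments of both genes in I-PpoI animals 1 and 2. It took 6.99% (5.81 to 8.33%) in I-PpoI animal 3 and 6.85 to 7.66% in the controls. Tagln and Gm48529 together came to 2459, 2606 and 125 fragments per 1000000 in I-PpoI animals 1, 2 and 3, against 308, 346 and 201 per 1000000 in control animals 1, 2 and 3. I-PpoI animal 3, whose split between the strands was like that of the controls, was the lowest of all 6 libraries for Tagln. The source of the Gm48529 fragments was not tested.

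**Figure D1:**
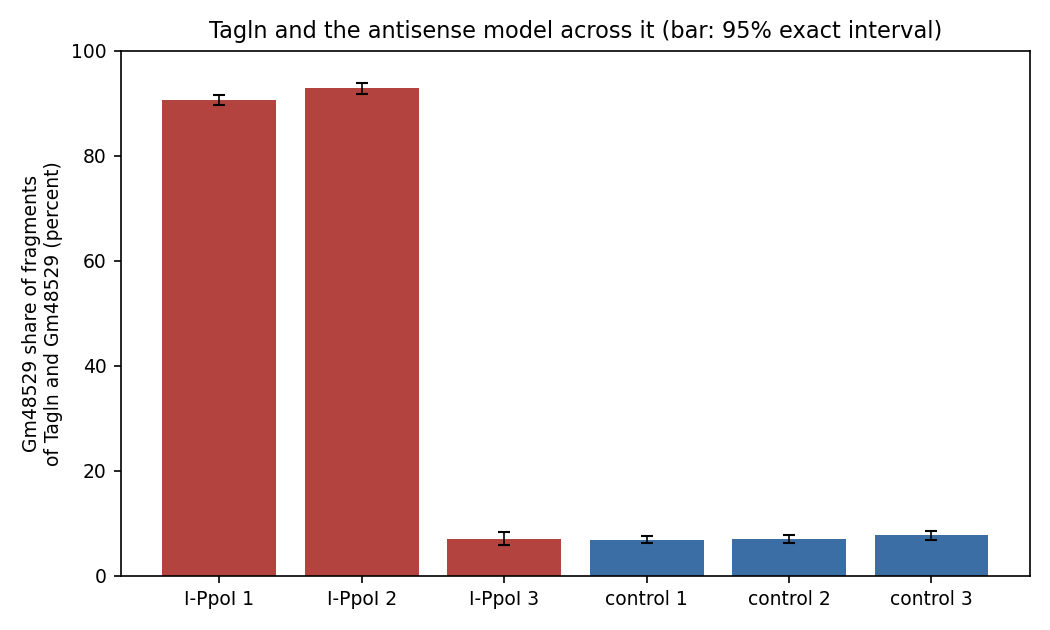
Share of the antisense model Gm48529 in the fragments of Tagln and Gm48529 together (percent, vertical axis) in each library, with 95% exact intervals as error bars. I-PpoI animals 1 and 2 stand at 90.6% and 92.9%, and I-PpoI animal 3 and the 3 controls lie between 6.85% and 7.66%.

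Myh11, the heavy chain of smooth muscle myosin (chromosome 16, 14194535 to 14291372), showed no separation of the groups. It was at 97.2, 68.9 and 55.4 FPKM in I-PpoI animals 1, 2 and 3, against 144, 38.6 and 79.4 FPKM in control animals 1, 2 and 3. Control mice 1 and 2 held the highest and the lowest value of the 6. The log2 difference was -0.08 (SE 0.54; limma adjusted p = 0.904), and without control animal 1 it was 0.37. Nde1, on the opposite strand 1607 bases from a Myh11 exon, was at 14.4, 7.45 and 10.4 FPKM in I-PpoI animals 1, 2 and 3, against 26.3, 21.97 and 20.03 FPKM in control animals 1, 2 and 3.

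Cnn1 encodes calponin, which binds actin and restrains its movement on myosin (chromosome 9, 22099216 to 22109630), and it was the least abundant of the contractile genes in the controls. It was at 4.56, 9.60 and 5.32 FPKM in I-PpoI animals 1, 2 and 3, against 9.23, 9.71 and 6.58 FPKM in control animals 1, 2 and 3. I-PpoI animal 2 reached the level of the controls on 22 fragments, and the log2 difference was -0.39 (SE 0.37; limma adjusted p = 0.407). It was -0.67 without I-PpoI animal 2 and -0.20 without I-PpoI animal 1.

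Rgs5 encodes a regulator of G protein signalling that marks pericytes and other mural cells (chromosome 1, 169655501 to 169695813), with no opposite-strand gene within 5 kb. It was at 49.4, 24.4 and 98.3 FPKM in I-PpoI animals 1, 2 and 3, against 273, 153 and 180 FPKM in control animals 1, 2 and 3. All I-PpoI libraries were below all controls, and I-PpoI animal 3 was the highest of its group. The log2 difference was -1.97 (SE 0.56; limma adjusted p = 0.132), and 1.76% of tested genes were lower.

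Pdgfrb encodes PDGFR-beta, the receptor through which PDGF-B holds mural cells at the vessel wall (chromosome 18, 61045150 to 61085061), again with no opposite-strand gene within 5 kb. It was at 26.5, 17.6 and 22.1 FPKM in I-PpoI animals 1, 2 and 3, against 65.5, 30.2 and 33.7 FPKM in control animals 1, 2 and 3. The groups did not overlap, but control animal 1 was far above the other controls. The log2 difference was -0.87 (SE 0.40; limma adjusted p = 0.142).

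Pdgfra encodes PDGFR-alpha, the PDGF receptor of fibroblasts (chromosome 5, 75152292 to 75198215). It was at 1.31, 1.31 and 1.74 FPKM in I-PpoI animals 1, 2 and 3, against 5.72, 1.64 and 2.50 FPKM in control animals 1, 2 and 3. I-PpoI animal 3 was above control animal 2, and the log2 difference was -0.70 (SE 0.42; limma adjusted p = 0.214). The values of I-PpoI animals 1 and 2 rest on 21 and 11 fragments, and the antisense models Gm42802 and Gm42803 overlap Pdgfra exons.

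Dcn, which encodes the matrix proteoglycan decorin (chromosome 10, 97479609 to 97518143), ran the other way in the deep library. It was at 0.427, 1.02 and 2.96 FPKM in I-PpoI animals 1, 2 and 3, against 0.424, 0.840 and 0.697 FPKM in control animals 1, 2 and 3. I-PpoI animal 3 had 230 fragments and a 95% exact Poisson interval of 2.59 to 3.36 FPKM, 4.52-fold the control mean, while I-PpoI animals 1 and 2 had only 4 and 5 fragments. The groups overlapped, and the log2 difference was 0.45 (SE 0.44; limma adjusted p = 0.413). It was 1.79 with limma-voom and 0.73 with a pseudocount of 0.1, neither past the threshold, and without I-PpoI animal 3 the mean of Dcn was too low for the fit.

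Lum, which encodes lumican of the same proteoglycan family, lies 46984 bases beyond Dcn on the same strand (chromosome 10, 97565128 to 97572703). It had 0, 0 and 8 fragments in I-PpoI animals 1, 2 and 3, against 0, 2 and 0 in control animals 1, 2 and 3. A count of 0 allows 3 fragments, or 0.764 and 1.46 FPKM in I-PpoI animals 1 and 2, and 0.0758 and 0.0723 FPKM in control animals 1 and 3. In I-PpoI animal 3 it stood at 0.245 FPKM, and its mean was too low for the fit.

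**Figure D2:**
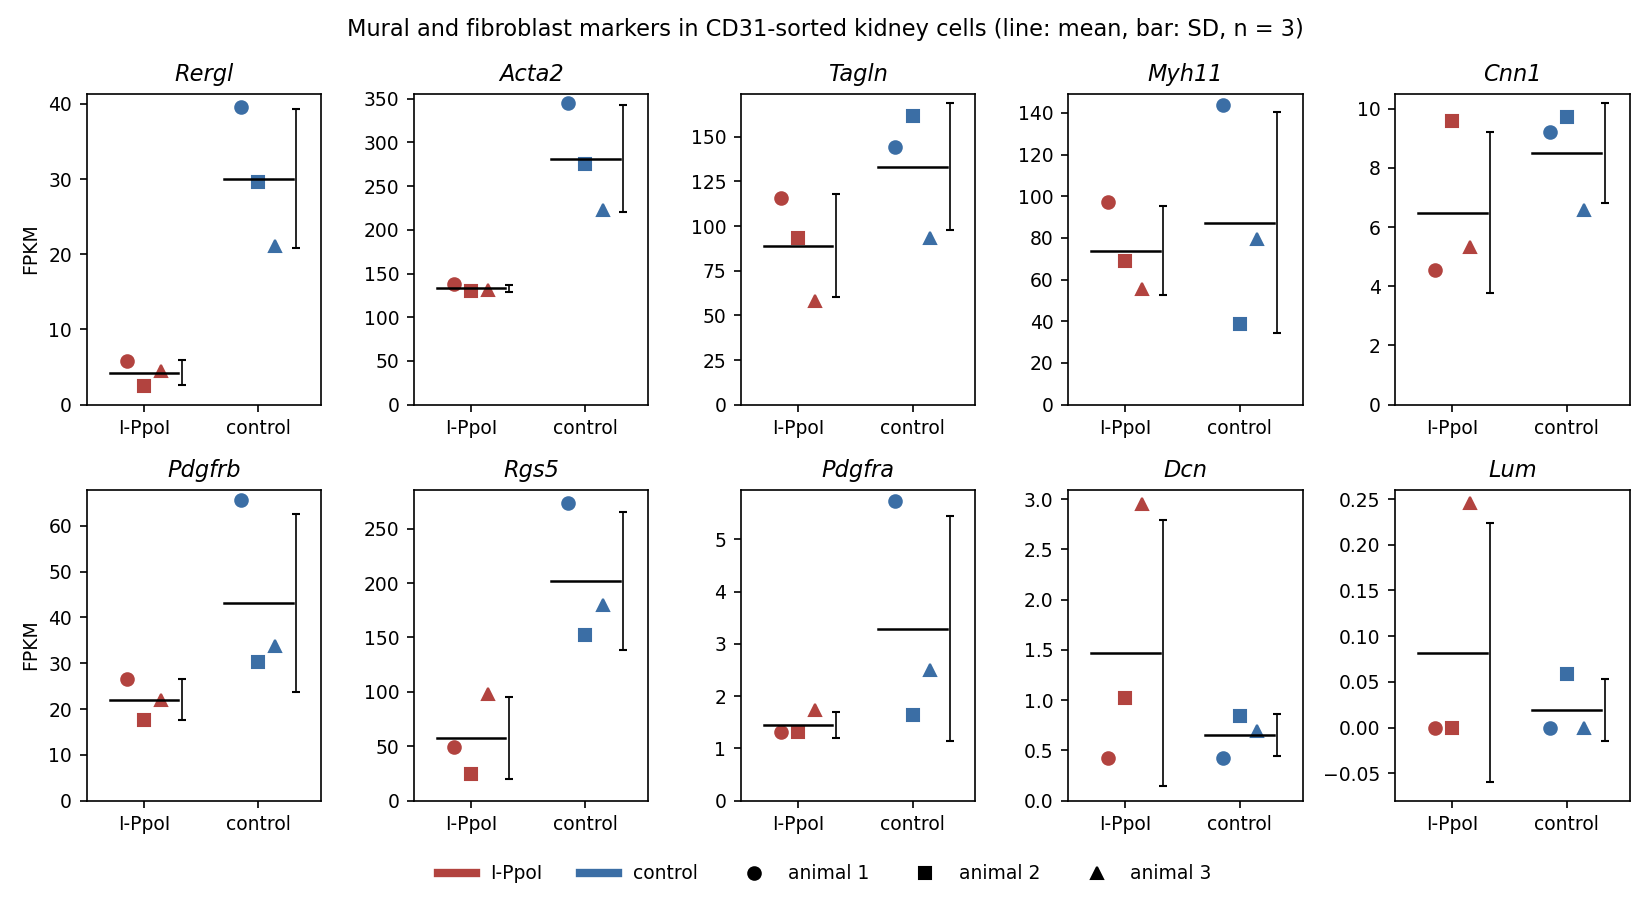
FPKM of the 10 markers (vertical axes, a scale per gene) in each I-PpoI and control library, with symbols for animals 1, 2 and 3, the group mean as a line and the SD as a bar (n = 3). I-PpoI libraries lie below all controls for Rergl, Acta2, Pdgfrb and Rgs5, and Dcn is highest in I-PpoI animal 3 at 2.96 FPKM.

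Of the 10 markers, 9 had a mean of at least 1 FPKM and entered the fit, and Lum did not. Leaving Rergl out of the tests, 0 of 8 passed at limma adjusted p under 0.05, with 0% of all 14962 genes called. At unadjusted p under 0.05, 2 of the 8, Acta2 and Rgs5, were lower, beside 32.2% of all genes lower and 4.23% higher, and limma-voom on recovered fragments also called 0 with 3 of the 8 and 3773 of all genes at unadjusted p under 0.05. With I-PpoI animal 3 left out, Rgs5 and Acta2 passed (limma adjusted p = 0.0035 and 0.0256). So did 8470 of the 15110 genes tested without that library, or 56.1%, with 36.1% lower. With all 6 libraries 0 genes passed, and 5457 were at unadjusted p under 0.05.

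Most genes ran low in the I-PpoI libraries as deposited, and the markers have to be read against that. The median log2 difference of all tested genes was -0.65. Relative to it, Rergl was at -1.92, Rgs5 at -1.32, Acta2 at -0.41, Pdgfrb at -0.22, Pdgfra at -0.05, Tagln at 0.05, Cnn1 at 0.26, Myh11 at 0.56 and Dcn at 1.10. Dcn met the filter only through I-PpoI animal 3, so nothing is read from its place. Rergl, whose value chose it, is left out of the counts that follow. Groups did not overlap, with I-PpoI lower, for 3 of the 8 other markers in the fit, beside 45.1% of all genes, and with I-PpoI higher for 0 of 8, beside 2.24%. Differences were below 0 for 7 of 8, beside 71.6% of all genes. These shares are near the background.

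Scaling each library by its median ratio to the others, which moved the median of all genes to 0.02, changed the picture for most markers. Rergl was then at 6.86, 4.26 and 5.41 FPKM in I-PpoI animals 1, 2 and 3, against 27.4, 22.4 and 16.5 FPKM in control animals 1, 2 and 3, with no overlap. Nothing is read from that, since its low I-PpoI values chose it. Of the 8 markers other than Rergl, 0 had every I-PpoI library below every control, beside 9.76% of all genes, and 0 had them above, beside 7.65%. Rgs5 was at 57.8, 41.8 and 119 FPKM in I-PpoI animals 1, 2 and 3, against 190, 116 and 141 FPKM in control animals 1, 2 and 3, where I-PpoI animal 3 passed control animal 2. Its scaled log2 difference was -1.13 (SE 0.46; limma adjusted p = 0.318). Scaled differences were below 0 for 4 of the 8 markers other than Rergl, beside 49.2% of all genes. They turned positive for Tagln (0.25), Cnn1 (0.37) and Myh11 (0.76), none past the threshold.

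**Figure D3:**
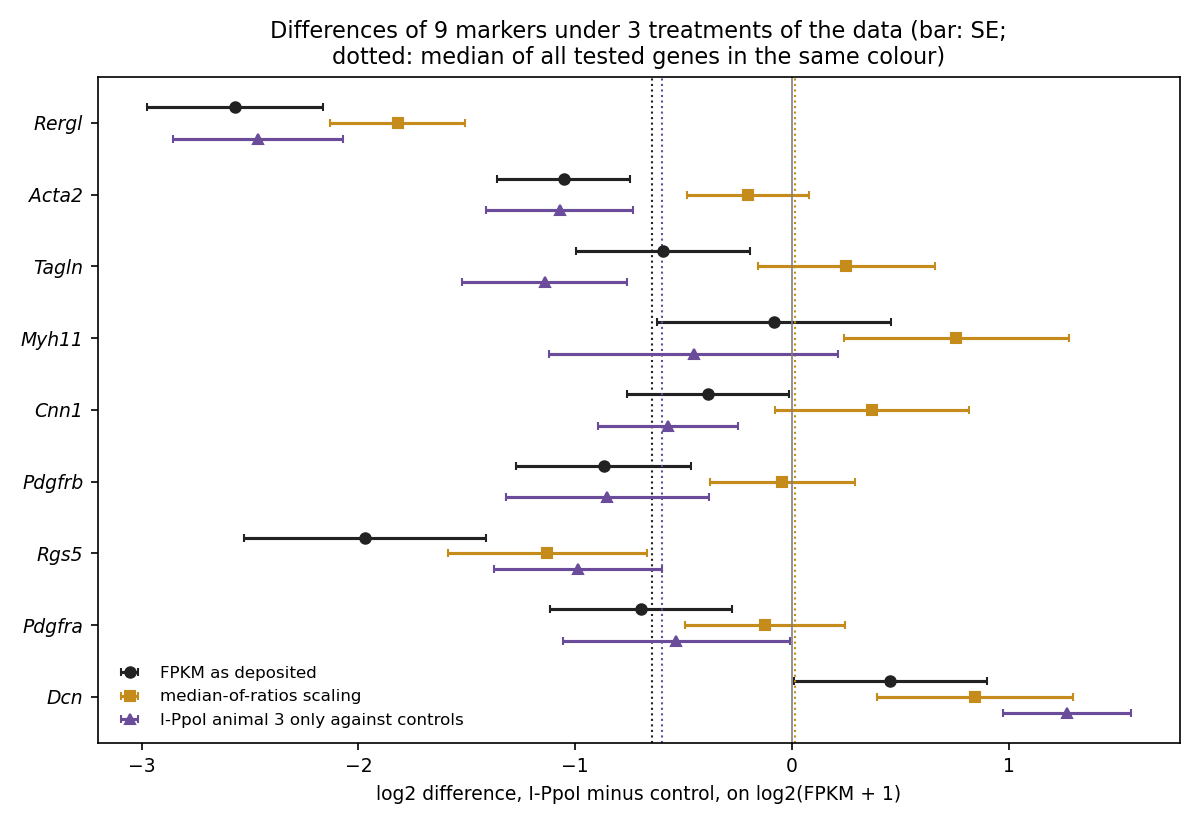
Log2 difference of I-PpoI minus control on log2(FPKM + 1) (horizontal axis) with SE bars for the 9 markers in the fit, as deposited, after median-of-ratios scaling, and for I-PpoI animal 3 alone against the controls. Dotted lines are the medians of all tested genes, at -0.65, 0.02 and -0.60, and Rergl, chosen by its low I-PpoI values, lies left of them in all 3.

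I-PpoI animal 3 alone was compared with the controls because it was close to them in depth and in strand. It differed from them in mitochondrial share, in Xist and Ddx3y, and in the median of the proximal tubule genes. The lone library was assumed to vary like the controls. Acta2, Tagln, Cnn1, Pdgfrb and Rgs5 were below every control in I-PpoI animal 3, or 5 of the 8 markers other than Rergl, beside 70.7% of all genes. I-PpoI animal 3 was above every control for Dcn, beside 6.17%. Dcn met the filter of 1 FPKM only through this library, so nothing is read from that. The control mean was 2.15-fold the level of I-PpoI animal 3 for Acta2, 2.29-fold for Tagln and 2.05-fold for Rgs5. It was 1.96-fold for Pdgfrb, 1.60-fold for Cnn1 and 1.57-fold for Myh11. Of the 8 markers tested, 0 passed in this fit, where 19 of all genes did.

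Ratios within a library do not depend on its scaling. Rergl was at 4.25%, 1.92% and 3.41% of Acta2 in I-PpoI animals 1, 2 and 3, against 11.5%, 10.7% and 9.45% in control animals 1, 2 and 3. The controls were alike and every I-PpoI library lay below them. Against Tagln, Rergl was at 5.08%, 2.68% and 7.67% in I-PpoI animals 1, 2 and 3, against 27.4%, 18.3% and 22.5% in control animals 1, 2 and 3, and it was also lower in every I-PpoI library relative to Myh11, Pdgfrb and Cdh5. Relative to Rgs5 the groups overlapped, at 11.9%, 10.2% and 4.54% in I-PpoI animals 1, 2 and 3, against 14.5%, 19.4% and 11.7% in control animals 1, 2 and 3. Rergl was chosen by its low I-PpoI values, so nothing is read from its own place in these ratios. Of the 7 other markers in the fit besides Acta2, 0 had every I-PpoI library below every control relative to Acta2, beside 1.09% of all genes, and 1, Myh11, had them above, beside 14.4%. Relative to Cdh5, 0 of the 8 markers other than Rergl were below, beside 1.35%, and 0 above, beside 15.2%.

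Of the ratios without Rergl, among markers or to Cdh5, 12 were tested, with 0 past the threshold. Myh11 was at 70.6%, 53.1% and 42.3% of Acta2 in I-PpoI animals 1, 2 and 3, against 41.7%, 14.0% and 35.6% in control animals 1, 2 and 3. The exact two-sided permutation p was 0.10, the smallest that 3 against 3 allows, and 0.343 after Benjamini-Hochberg adjustment over 12 ratios. Rgs5 was at 186%, 138% and 446% of Pdgfrb in I-PpoI animals 1, 2 and 3, against 417%, 506% and 534% in control animals 1, 2 and 3, so I-PpoI animal 3 lay among the controls (exact permutation p = 0.20). Pdgfrb stayed close to one share of Acta2, at 19.3%, 13.6% and 16.8% in I-PpoI animals 1, 2 and 3, against 19.0%, 10.95% and 15.1% in control animals 1, 2 and 3 (exact permutation p = 0.60). Dcn was at 32.7%, 78.0% and 170% of Pdgfra in I-PpoI animals 1, 2 and 3, against 7.41%, 51.1% and 27.9% in control animals 1, 2 and 3, and the groups overlapped (exact permutation p = 0.20). Nothing is read from this ratio, since Dcn had only 4 and 5 fragments in I-PpoI animals 1 and 2 and met the filter only through I-PpoI animal 3.

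**Figure D4:**
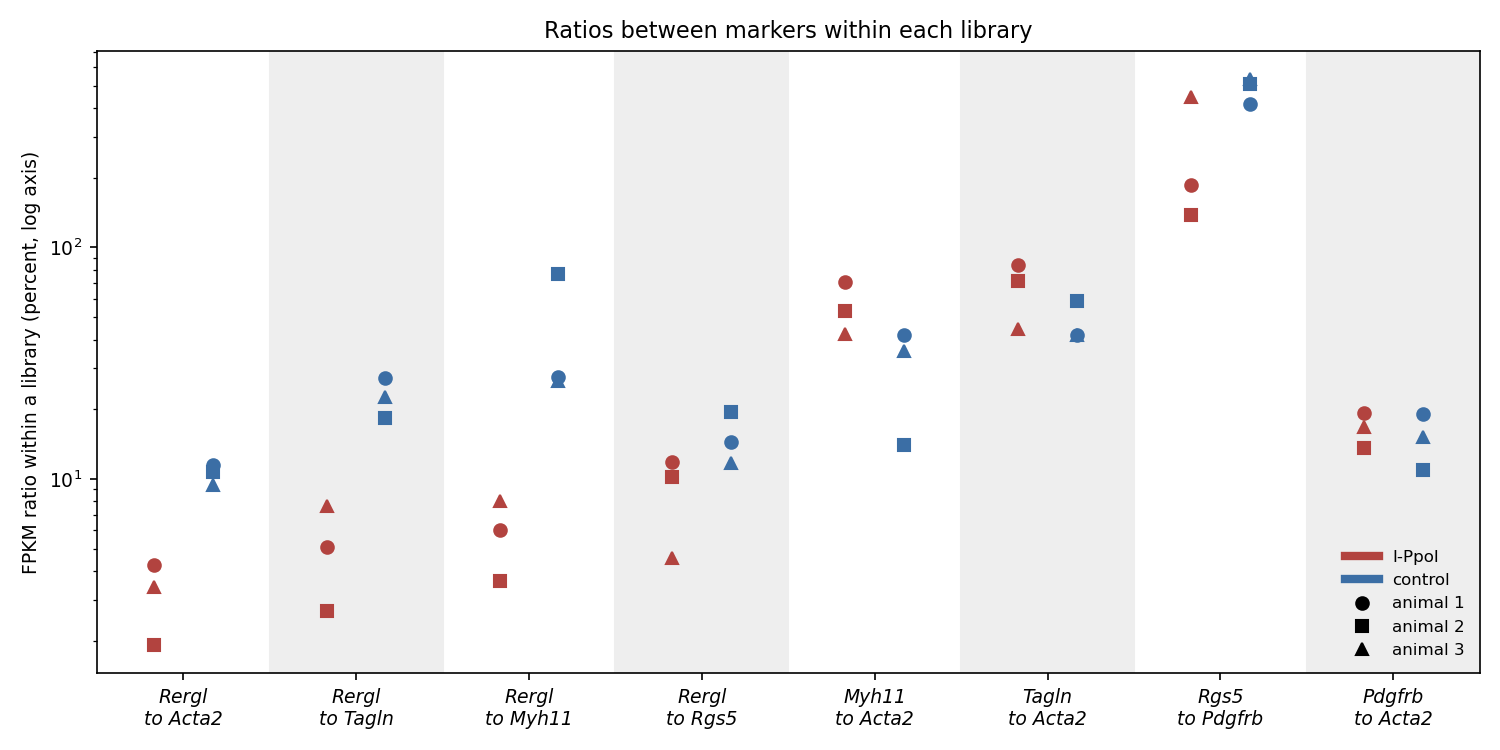
Ratios of FPKM between pairs of markers within each library (percent, log axis), with I-PpoI left of control for each pair and symbols for animals 1, 2 and 3. Rergl relative to Acta2 lies at 1.92 to 4.25% in I-PpoI and 9.45 to 11.5% in control libraries, and Pdgfrb relative to Acta2 overlaps between the groups.

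The smooth muscle genes were also set against endothelium, as log2(FPKM + 1) less the median of 16 endothelial genes in the same library. The mean of Acta2, Tagln, Myh11 and Cnn1 stood at -0.38, 1.06 and -0.78 in I-PpoI animals 1, 2 and 3, against -0.81, -1.41 and -1.32 in control animals 1, 2 and 3. Every I-PpoI library was above every control on this measure, I-PpoI animal 3 by little. So were Cnn1 and Dcn, 2 of the 8 markers in the fit other than Rergl, beside 59.5% of all genes, so this separation is common among genes. Dcn met the filter only through I-PpoI animal 3, so nothing is read from its place. Of the 8 markers other than Rergl, 0 lay below every control on it, beside 0.0802% of all genes. Rergl stood at -3.37, -2.91 and -3.68 in I-PpoI animals 1, 2 and 3, against -2.01, -2.52 and -2.76 in control animals 1, 2 and 3, below every control. Its low I-PpoI values chose it, so nothing is read from that place. Of the 16 endothelial genes themselves, 16 had differences below 0, with a median of -1.49 and 0 past the threshold.

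Control animal 1 held the highest control value for 6 of the 10 markers. Summed FPKM of 4 podocyte genes was 118, 40.5 and 72.7 in I-PpoI animals 1, 2 and 3, against 419, 112 and 133 in control animals 1, 2 and 3, so control animal 1 stood out there too. For 8 macrophage genes the sum was 89.4, 248 and 220 in I-PpoI animals 1, 2 and 3, against 30.5, 178 and 212 in control animals 1, 2 and 3, where control animal 1 was lowest. The part of these cells in the marker values was not tested. The median log2 difference was 0.56 over the macrophage genes and 0.55 over the 9 proximal tubule genes, with 0 past the threshold in either list. Without control animal 1 the log2 differences of Pdgfrb and Pdgfra were -0.53 and -0.32.

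Other genes of the same cells gave a background for the markers. Of 17 further smooth muscle genes 15 entered the fit, all with differences below 0 and none past the threshold, with a median of -0.66 as deposited, beside -0.65 for all genes, and of 0.16 scaled. The myosin light chain gene Myl9 was at 226, 187 and 156 FPKM in I-PpoI animals 1, 2 and 3, against 380, 287 and 228 FPKM in control animals 1, 2 and 3, and did not overlap. Csrp1, a LIM-domain protein of smooth muscle, was at 76.8, 35.4 and 68.3 FPKM in I-PpoI animals 1, 2 and 3, against 165, 173 and 145 FPKM in control animals 1, 2 and 3. Sncg and the tropomyosin gene Tpm2 overlapped between the groups, with log2 differences of -0.45 (SE 0.39) and -0.38 (SE 0.41).

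SRF itself and its coactivators were measured as regulators of these genes. Srf was at 19.0, 21.9 and 10.8 FPKM in I-PpoI animals 1, 2 and 3, against 24.2, 17.8 and 18.2 FPKM in control animals 1, 2 and 3. Myocd, which encodes myocardin, averaged under 1 FPKM over the 6 libraries and was at 0.388, 0.372 and 0.818 FPKM in I-PpoI animals 1, 2 and 3, against 1.96, 0.321 and 1.28 FPKM in control animals 1, 2 and 3. Of Srf, Mrtfa and Mrtfb, 0 passed the threshold, and their log2 differences were -0.25, 0.12 and -1.25.

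Of 12 further pericyte genes 8 entered the fit, with 7 below 0, 0 past the threshold and a median of -0.87 as deposited and -0.29 scaled. Notch3, the mural Notch receptor, was at 34.2, 21.8 and 21.9 FPKM in I-PpoI animals 1, 2 and 3, against 63.3, 18.8 and 34.4 FPKM in control animals 1, 2 and 3, with overlap. Gucy1a1, a subunit of the nitric oxide receptor guanylate cyclase, was at 4.38, 2.40 and 6.50 FPKM in I-PpoI animals 1, 2 and 3, against 19.3, 9.10 and 10.5 FPKM in control animals 1, 2 and 3, with none. Ndufa4l2 and Cox4i2, genes of mitochondrial proteins enriched in pericytes, had log2 differences of -1.16 (SE 0.46) and -1.03 (SE 0.41). All 5 mesangial genes were below 0, with 0 past the threshold and a median of -1.10; the integrin gene Itga8 was at -1.23 and Agtr1a, the angiotensin II receptor, at -1.01.

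All 4 renin-lineage genes had differences below 0, with 0 past the threshold and a median of -0.54. For Ren1 the groups overlapped, and its log2 difference was -0.52 (SE 0.45; limma adjusted p = 0.357). Akr1b7, an aldo-keto reductase of renin cells, was at 9.25, 13.98 and 9.67 FPKM in I-PpoI animals 1, 2 and 3, against 19.4, 18.7 and 11.6 FPKM in control animals 1, 2 and 3. Crip1, which renin cells share with many other cells, was at 22.4, 15.2 and 18.7 FPKM in I-PpoI animals 1, 2 and 3, against 59.3, 114 and 46.8 FPKM in control animals 1, 2 and 3. It alone of the 4 had every I-PpoI library below every control, beside 45.1% of all genes. The log2 difference of Crip1 was -1.83 (SE 0.42, limma adjusted p = 0.132).

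The PDGF ligands pair with both receptors among the markers. Pdgfb, the endothelial ligand of PDGFR-beta, was at 101, 34.1 and 42.1 FPKM in I-PpoI animals 1, 2 and 3, against 123, 123 and 94.3 FPKM in control animals 1, 2 and 3, with overlap. Pdgfd, another ligand of PDGFR-beta, was at 5.34, 3.78 and 17.2 FPKM in I-PpoI animals 1, 2 and 3, against 42.2, 33.6 and 38.5 FPKM in control animals 1, 2 and 3, without overlap. Their log2 differences were -1.08 (SE 0.47) and -2.25 (SE 0.54), with limma adjusted p = 0.136 and 0.132. Pdgfa and Pdgfc, which bind PDGFR-alpha, were at -0.14 and -0.65, so 0 of 4 ligands passed.

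Of 14 further fibroblast genes 10 entered the fit, with 4 above 0, 6 below 0, 0 past the threshold and a median of -0.45 as deposited and 0.25 scaled. Among the 4, Mfap4 and Fbln1 averaged 0.245 and 0.483 FPKM in the controls and met the filter only through I-PpoI libraries. Nothing is read from their direction. Pi16, listed as a marker of adventitial fibroblasts, was at 146, 35.6 and 57.6 FPKM in I-PpoI animals 1, 2 and 3, against 139, 168 and 111 FPKM in control animals 1, 2 and 3, and has 2 genes on the opposite strand within 5 kb. In the controls Pi16 was far above Pdgfra (1.64 to 5.72 FPKM) and Dcn (0.424 to 0.840 FPKM). Its cell source was not tested, so it is not read as a measure of fibroblasts. The stromal factor Tcf21, Islr and the collagen crosslinking enzyme gene Lox lay at log2 differences of -0.61, -0.46 and -1.03. Among relatives of Dcn and Lum, 6 of 9 small leucine-rich proteoglycan genes entered the fit, with 6 below 0, 0 past the threshold and a median of -1.04. Biglycan (Bgn) was at 29.9, 20.5 and 46.3 FPKM in I-PpoI animals 1, 2 and 3, against 86.8, 41.2 and 67.6 FPKM in control animals 1, 2 and 3, with overlap, and Kera and Epyc were listed at 0 in every library.

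**Figure D5:**
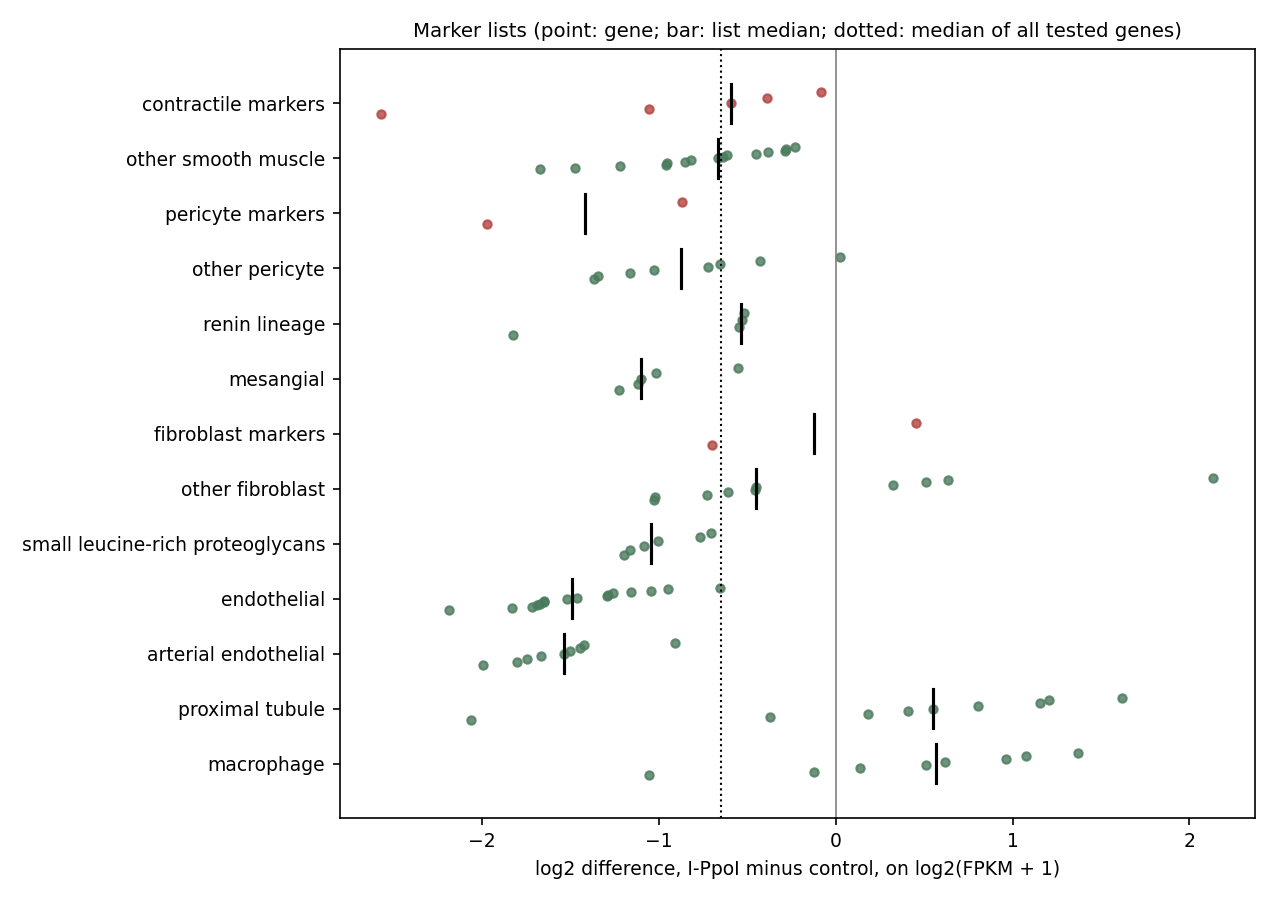
Log2 difference of I-PpoI minus control on log2(FPKM + 1) (horizontal axis) for each gene of 13 marker lists, with list medians as bars and the median of all tested genes as a dotted line at -0.65. Other smooth muscle genes centre on that line at -0.66, and Rergl, chosen by its low I-PpoI values, is the leftmost contractile marker at -2.57.

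Relatives of Rergl and Rgs5 were followed too. Of 6 RERG relatives 4 entered the fit, with 3 below 0, 0 past the threshold and a median of -0.63. Rasl11a was at 18.2, 10.9 and 12.0 FPKM in I-PpoI animals 1, 2 and 3, against 43.6, 30.8 and 15.7 FPKM in control animals 1, 2 and 3, and Rasl11b, Rasl12 and Rasl10a had log2 differences of -0.71, -0.56 and 1.30. Rasl10a and Rasl12 have an opposite-strand gene within 5 kb, and Rasl10b and Rerg averaged under 1 FPKM. Rasl10a averaged 0.439 FPKM in the controls and met the filter only through I-PpoI libraries, so nothing is read from its direction. Of 8 further RGS genes of the R4 family 4 entered the fit, all 4 below 0 (beside 71.6% of all genes) with every I-PpoI library below every control (beside 45.1%), 0 past the threshold and a median of -1.34 as deposited and -0.68 scaled. Rgs4 was at 2.62, 0.770 and 2.45 FPKM in I-PpoI animals 1, 2 and 3, against 10.4, 6.72 and 6.99 FPKM in control animals 1, 2 and 3, and Rgs2, Rgs3 and Rgs16 had log2 differences of -1.36, -1.06 and -1.31.

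Likeness of pattern was measured by Pearson's r of log2(FPKM + 1) over the 6 libraries among 11649 protein-coding genes, as a description. The 5 genes most like Rergl were Bahd1, Sdc1, Snrpn, Smarcal1 and Vapb, with r of 0.996 to 0.998, but 2314 genes exceeded 0.9, since many share the gap between the groups. The 5 most like the mean of Acta2, Tagln, Myh11 and Cnn1 were Axin1, Pmepa1, Gab1, Dhx35 and Myl9, with r of 0.967 to 0.973, and 88 genes exceeded 0.9. Of these, Myl9 is a smooth muscle gene on the list above. All 6 points share depth and strand differences between libraries.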

How the data were processed

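RNA of CD31-sorted kidney cells was measured in 3 I-PpoI and 3 control mice. The authors deposited FPKM per gene, normalized to library size and exon length. DESeq2 and the builds mm10 and GRCm38 are named, per the submitters' processing notes. Which aligner, counter and strand option were run is not given in the sources used here. Coordinates are those of the deposited table, of whose 55487 IDs 55227 match GENCODE M21; its exons gave lengths and opposite-strand neighbours.

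Multiplying by exon length turned 99.2 to 99.4% of nonzero values under 1000 fragments into whole numbers, within 0.05. The main model was limma on log2(FPKM + 1), covering 14962 genes averaging 1 FPKM or more, with no replicate block and Benjamini-Hochberg adjustment over all of them, at a threshold of 0.05. Because the values are FPKM, limma-voom on recovered fragments was an alternative only. The members, lists and tests were chosen with earlier results of these data known. Genes named besides the 10 markers are up to 4 of highest mean FPKM per list, lists of 6 or fewer in full where their members are listed, the 5 most like Rergl or the contractile mean, and opposite-strand neighbours of markers. Ddx3y, Xist, Kera, Epyc, Mfap4 and Fbln1 were named after their values were seen. Poisson and Clopper-Pearson intervals are exact, at 95%. Simulated data with known differences were used to test the limma step. The labels describe separate mice. Promoters are RefSeq's on GRCm38.p6. Limma 3.58.1 ran in R 4.3.3; scipy 1.17.1, matplotlib 3.10.9, pandas 2.3.3 and numpy 2.4.6 ran in python 3.11.15.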

Additional observations from a re-analysis of the deposited data

How the results depend on the processing

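The count of 0 genes passing held with a pseudocount of 0.1 or 0.5, every gene kept, only genes averaging 5 FPKM or more, median-of-ratios scaling, limma-voom, the replicate block, and genes clear of the opposite strand with median-of-ratios scaling. It became 5153 genes when each library was rescaled to a common total, 19 with I-PpoI animal 3 alone against the controls, and 0 to 8470 with 1 library left out, every call coming without I-PpoI animal 3. Of the 8 markers tested, 3 (Acta2, Pdgfrb and Rgs5) passed with a common total, beside 5153 of 14962 genes. With 1 library left out 0 to 2 markers passed. The calls came without I-PpoI animal 3, at 2 of 7 markers, beside 8470 of 15110 genes (56.1%). Direction turned with median-of-ratios scaling for Tagln (0.25), Myh11 (0.76) and Cnn1 (0.37), with that scaling and only genes clear of the opposite strand for Pdgfrb (0.25, against -0.0449 with the scaling alone), and with a common total for Dcn (-0.0248). Myh11 ranged from -0.57 to 0.37 with 1 library left out, positive without I-PpoI animal 3 (0.10) or control animal 1. Rergl was chosen by its low I-PpoI values, so nothing is read from its staying below 0 throughout. It was at -1.82 with median-of-ratios scaling, -1.54 with that scaling over genes clear of the opposite strand, -3.56 with a common total and -2.79 to -2.30 with 1 library left out. The cause was not tested. The replicate block changed no call (0 genes and 0 markers). Same-numbered libraries correlated at 0.0890, 0.0631 and -0.0204 over all tested genes as deposited, the measure set for this check. The numbers were therefore not read as pairs. Over genes clear of the opposite strand, and with median-of-ratios scaling, the correlations were 0.267, 0.195 and 0.188. The 2 to 22 fragments behind Rergl, Cnn1, Pdgfra and Dcn in I-PpoI animals 1 and 2 limit those values.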
